A study of Mus musculus with 2 samples.

Results

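The genes described here are 9 genes used as labels of the mural cells of blood vessels, that is, pericytes and vascular smooth muscle cells. They were taken by symbol from the GENCODE M21 tables, which list 55536 genes, and all 9 were found: Pdgfrb, Rgs5, Abcc9, Anpep and Cspg4, used as pericyte genes, and Acta2, Tagln, Myl9 and Cnn1, genes of the contractile apparatus. The list was selected on the measured TPM and pool ratios of these same libraries, so these values are descriptions and carry no test. The tissue was forebrain of healthy B6NCrl mouse embryos of both sexes, 12.5 days old, with no treatment and no genetic change named in the labels. Pool 1 combined 120 embryos and pool 2 combined 68 embryos, and 1 polyA-plus RNA-seq library was made from 10 ng of RNA of each. The labels call the pools biological replicates of 1 group, give no contrast, and give both the same donor identifier, so differences between single embryos are averaged out and each pool has no replicate of its own.

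Pericytes sit on capillaries inside the basement membrane, and smooth muscle cells ring the larger vessels and give them tone. Endothelial cells release PDGF-B, which draws mural cells carrying the receptor PDGFRβ onto growing vessels, and in the embryonic forebrain these cells arise largely from the neural crest. Contractile genes of smooth muscle are classically driven by serum response factor and its cofactors of the myocardin family. None of the 9 genes belongs to a single cell type: Pdgfrb is also made by meningeal fibroblasts, Cspg4 by oligodendrocyte precursors, Anpep by several epithelial and myeloid cells, and Myl9 by many non-muscle cells. A whole-tissue library does not assign a transcript to a cell.

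All 9 genes were detected, meaning a level of at least 1 TPM (an abundance corrected for transcript length and scaled to a fixed total per library) in each pool. For Cspg4, Cnn1 and Anpep detection depends on which transcripts are counted, as given further on. The library of pool 1 held 33373843 gene counts and that of pool 2 held 34406648. The 6 markers of neural tissue (Pax6, Sox2, Fabp7, Tubb3, Dcx and Map2) were all detected. Their summed level was 2169 TPM (pool 1) and 1929 TPM (pool 2). This list does not check which part of the nervous system was taken. The 9 mural genes together came to 99.3 TPM (pool 1) and 148.7 TPM (pool 2). All 10 endothelial markers were detected too, and their sum was 150.7 TPM (pool 1) and 155.8 TPM (pool 2).

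By mean level the order was Myl9 at 61.3 ± 18.9 TPM (SD, n = 2, as for every ± here), Acta2 at 26.0 ± 11.7 TPM, Pdgfrb at 13.8 ± 1.22 TPM and Tagln at 10.6 ± 3.49 TPM. Below them stood Rgs5 at 3.90 ± 0.170 TPM, Cspg4 at 2.64 ± 0.438 TPM, Cnn1 at 2.43 ± 0.849 TPM, Anpep at 1.86 ± 0.552 TPM and Abcc9 at 1.54 ± 0.0919 TPM. The pools' ranges did not overlap between Myl9 and Acta2, Acta2 and Pdgfrb, Tagln and Rgs5, or Rgs5 and Cspg4. They overlapped between Pdgfrb and Tagln and along the chain from Cspg4 through Cnn1 and Anpep to Abcc9, so the order within those stretches is not resolved by these pools. The SDs of the 4 contractile genes and of Anpep are wide for their means, which the next paragraphs take gene by gene.

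**Figure D1:**
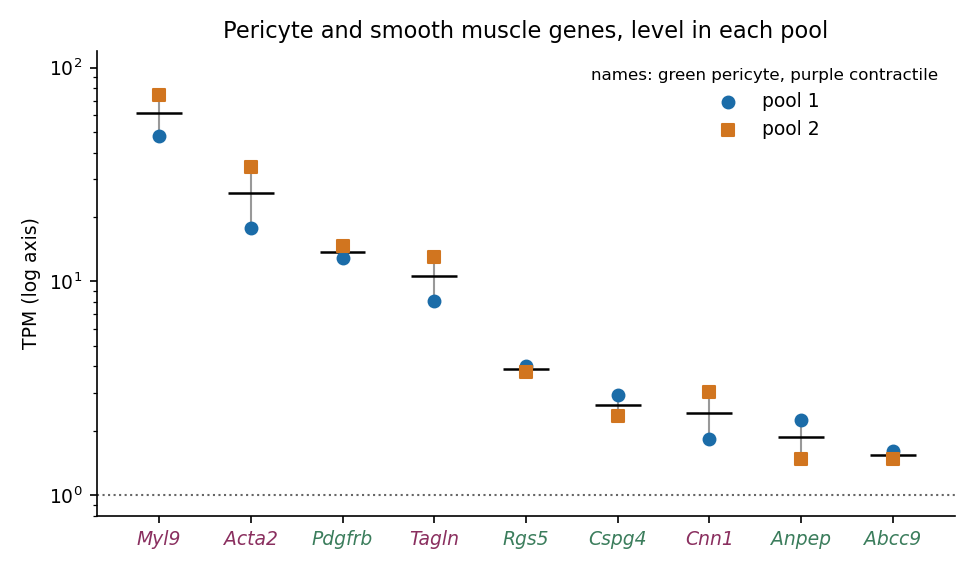
TPM of each gene (vertical, log axis) in pool 1 (circles) and pool 2 (squares), with the mean as a black bar and the detection level of 1 TPM dotted. The square lies above the circle for Myl9, Acta2, Tagln and Cnn1, from 74.69 against 47.94 TPM in Myl9 to 3.03 against 1.83 TPM in Cnn1, and for Pdgfrb by a smaller step.

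Pdgfrb (ENSMUSG00000024620.11, chromosome 18), the receptor tyrosine kinase that recruits mural cells, was the most abundant of the pericyte genes at 12.91 TPM (pool 1) and 14.63 TPM (pool 2). These levels rest on 1455 and 1717 counts. After TMM normalisation, which scales the libraries so that most genes agree, its fold in pool 2 over pool 1 was 1.12, with a 95% interval of 1.044 to 1.202 that covers counting error only. Pdgfrb was thus slightly higher in pool 2 by more than counting error, and well short of 1.5-fold.

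Rgs5 (ENSMUSG00000026678.10, GRCm38 chromosome 1, 169655501 to 169695813), a brake on G protein signalling and a classic marker of brain pericytes, stood at 4.02 TPM (pool 1) and 3.78 TPM (pool 2). Abcc9 (ENSMUSG00000030249.15, chromosome 6, 142587862 to 142702315), the sulfonylurea receptor SUR2 of an ATP-sensitive potassium channel, read 1.61 TPM (pool 1) and 1.48 TPM (pool 2). The fold in pool 2 over pool 1 was 0.930 for Rgs5 (interval 0.797 to 1.08) and 0.907 for Abcc9 (interval 0.755 to 1.09). Both intervals include 1, so neither gene is separated between the pools by its counts of 341 and 334 for Rgs5 and 247 and 236 for Abcc9.

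Cspg4 (ENSMUSG00000032911.6, chromosome 9, 56865033 to 56899870), the NG2 proteoglycan, reached 2.95 TPM (pool 1) and 2.33 TPM (pool 2) from 317 and 285 counts. Its fold of 0.853 was the lowest of the 9 genes, and its interval, 0.725 to 1.005, just includes 1. The 5 genes listed as oligodendrocyte precursor markers summed to 50.51 TPM (pool 1) and 47.93 TPM (pool 2), all 5 detected. They include Pdgfra and Sox10, which are not made by those cells alone, so the sum is no measure of such cells. The part of oligodendrocyte precursors in the Cspg4 level was not tested.

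Anpep (ENSMUSG00000039062.15, chromosome 7, 79821803 to 79861059), the surface aminopeptidase CD13, gave 2.25 TPM (pool 1) and 1.47 TPM (pool 2) although its counts were nearly equal, at 84 and 89. Its fold from counts was 1.01 (interval 0.738 to 1.37), and its log2 ratio of pool 1 over pool 2 was -0.008 from counts and 0.40 from TPM + 1. In the M4 tables Anpep was at 1.23 TPM (pool 1) and 1.2 TPM (pool 2), and by posterior mean TPM its mean level was 2.71 in place of 1.86. The sign for Anpep therefore depends on whether counts or length-corrected values are compared.

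Acta2 (ENSMUSG00000035783.9, chromosome 19, 34241090 to 34255590), smooth muscle alpha-actin, was at 17.69 TPM (pool 1) and 34.25 TPM (pool 2). It gathered 722 counts in pool 1 and 1404 in pool 2, a fold of 1.85 (interval 1.69 to 2.02). The interval lies wholly above 1.5, as does that of Tagln.

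Tagln (ENSMUSG00000032085.5, chromosome 9, 45929619 to 45936058), the actin-binding protein transgelin or SM22α, was at 8.10 TPM in pool 1 against 13.04 TPM in pool 2. Its expected counts were 191.78 and 394.99, and the fold was 1.95 (interval 1.64 to 2.33). The Tagln counts are less certain than the others. An antisense gene, Gm48529, overlaps 3627 bases of Tagln on the opposite strand and had 29.11 and 55.86 counts. The protein-coding gene Pcsk7 overlaps it by 108 bases. Whether counting used strand is not given in the sources used here, and 48.3% of the 50-base words of the main transcript Tagln-201 also occur in another gene's transcripts on either strand, 688 of 1546 words in Gm48529. In the other 8 genes the share of such words was 0% for 6, 0.352% for Acta2 and 2.27% for Abcc9.

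Myl9 (ENSMUSG00000067818.6, chromosome 2, 156775420 to 156781658), the regulatory myosin light chain of smooth muscle, read 47.94 TPM (pool 1) and 74.69 TPM (pool 2). With 1031 and 1663 counts the fold was 1.53 (interval 1.42 to 1.66). Cnn1 (ENSMUSG00000001349.5, chromosome 9, 22099216 to 22109630), calponin 1, a late marker of contractile smooth muscle, had only 38 and 67 counts, for 1.83 TPM (pool 1) and 3.03 TPM (pool 2). The fold for Cnn1 was 1.67 (interval 1.11 to 2.56). The intervals of Myl9 and Cnn1 exclude 1 but include 1.5, so for these 2 genes the place of the fold relative to 1.5 is not settled by the counts.

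Between the pools the list divided along its 2 groups. All 4 contractile genes were over 1.5-fold higher in pool 2 and none of the 5 pericyte genes passed 1.5-fold in either direction. Over the 19063 genes that averaged 10 counts or more, 7.96% were higher in pool 2 past 1.5-fold and 3.26% higher in pool 1. Among 9685 protein-coding genes within the range of the 9 genes' mean TPM the shares were 2.09% and 0.898%, or 2.98% in either direction. Since the 9 genes were proposed with the pool difference in view, these background shares are given for scale only. By direction alone, 6 of 9 were higher in pool 2, beside 50.6% of all genes and 47.4% of the protein-coding genes of like level. The median log2 ratio of pool 1 over pool 2 was -0.81 for the contractile genes and -0.003 for all genes in the fit. For the pericyte genes it was 0.10, turning to -0.06 with the spike-in totals as the scaling, a scaling that moved the median of all genes by -0.16.

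**Figure D2:**
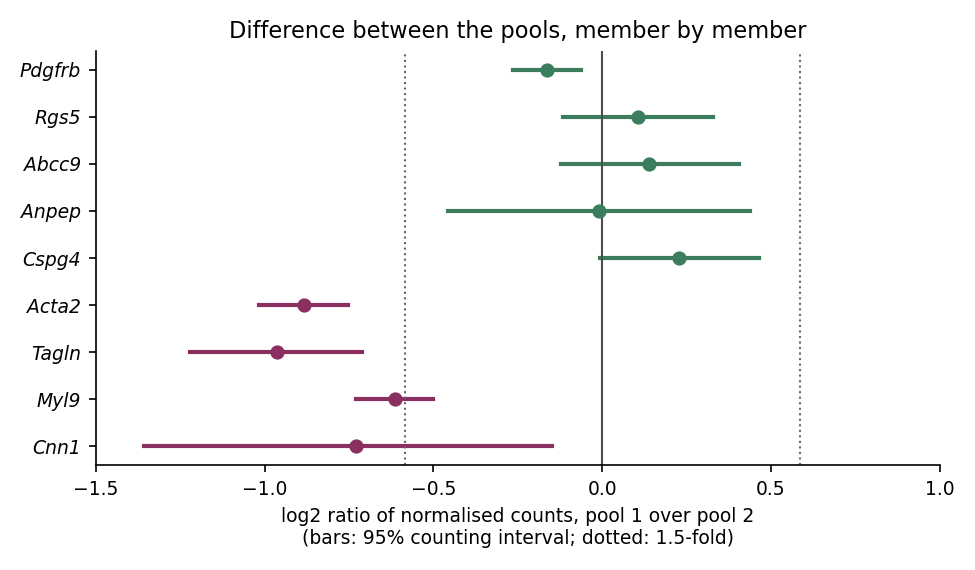
Log2 ratio of normalised counts, pool 1 over pool 2 (horizontal), for the 5 pericyte genes (green) and 4 contractile genes (purple), with 95% counting intervals as bars and 1.5-fold dotted. The contractile points run from -0.61 (Myl9) to -0.96 (Tagln) and the pericyte points from -0.16 (Pdgfrb) to 0.23 (Cspg4), and the groups of points do not overlap.

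The same levels can also be set against each other within each library, where no normalisation between libraries enters. These ratios restate the values given above and are no separate evidence. The summed TPM of the contractile genes was 3.18 times that of the pericyte genes in pool 1 (75.56 over 23.74 TPM) and 5.28 times in pool 2 (125.0 over 23.69 TPM). Acta2 stood at 1.37 times the TPM of Pdgfrb in pool 1 and 2.34 times in pool 2. Against the vessel lining the pericyte sum was nearly steady, at 0.158 of the endothelial sum in pool 1 and 0.152 in pool 2, while the contractile sum went from 0.501 to 0.802 of it. In tissue of mixed cells, more cells of a type and more RNA per cell cannot be told apart.

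Markers of other cells also differed between the pools. Of 8 skeletal and cardiac muscle markers, 2 were detected at 1 TPM in both pools (Actc1 and Tnnt2), and the summed level was 4.54 TPM (pool 1) and 10.98 TPM (pool 2). All 6 with enough counts for a ratio were higher in pool 2, 5 of them past 1.5-fold, with a median log2 ratio of -1.27. The muscle-determining factors were scarce: Myog had 1 count in pool 1 and 29 in pool 2, Myod1 had 0, which allows up to 3, and 10, and Myf5 had 3 and 2. The sarcomeric actins Actc1 and Acta1 had 62 against 153 and 21 against 57 counts. The part of these markers in the contractile result was not tested.

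Of the 11 markers of meninges and fibroblasts, 10 were detected and 10 were higher in pool 2, none past 1.5-fold, with a median log2 ratio of -0.35 and a sum of 757.5 TPM (pool 1) and 909.0 TPM (pool 2). Among them were the collagen gene Col1a2, with 12282 and 17016 counts, and the mesenchymal factor Twist1, with 193 and 303. All 6 red cell markers were higher in pool 2 as well, with a median of -0.44 and sums of 10022 and 13561 TPM. The 6 neural markers had a median of 0.14, with 5 of 6 higher in pool 1. Their part in the contractile result was not tested either. The endothelial markers, 5 higher in each pool, had a median of 0.001, and the 6 microglia and macrophage markers, 5 of them detected, had -0.05 with sums of 34.64 and 39.09 TPM. The 5 oligodendrocyte precursor markers had a median of 0.02, with Sox10, which is also a neural crest factor, higher in pool 2 at 109 against 59 counts. Scaling by the counts of the endothelial markers, chosen after seeing the data, left the contractile median at -0.83.

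**Figure D3:**
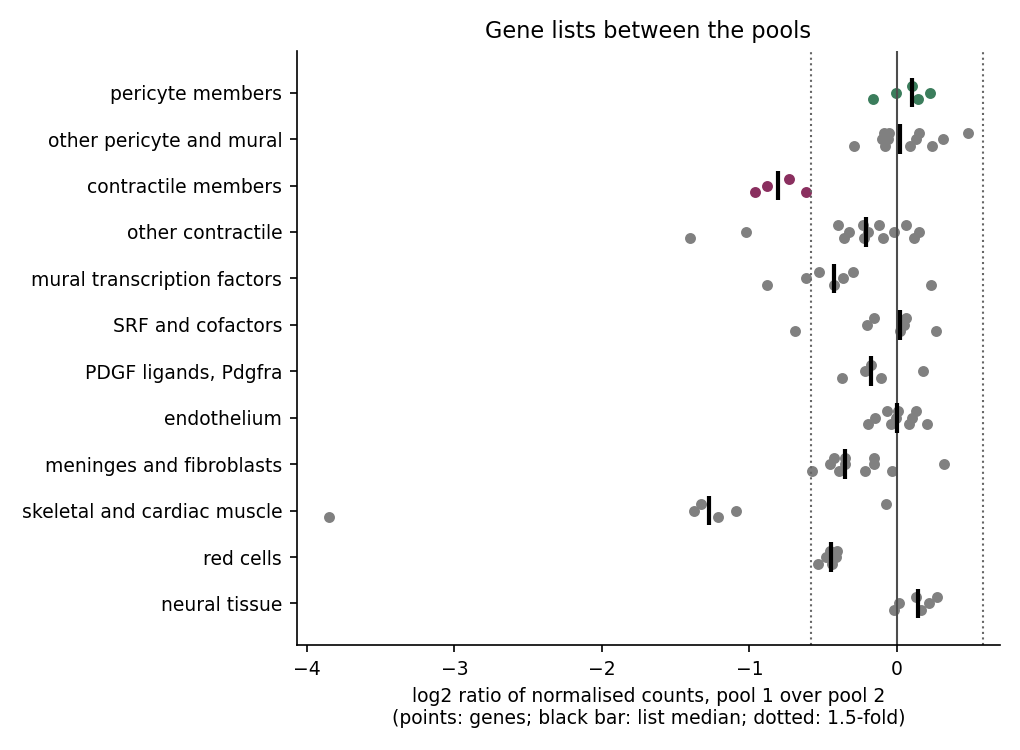
Log2 ratios of single genes (points, pool 1 over pool 2, horizontal) by list, with list medians as black bars and 1.5-fold dotted. The contractile members (median -0.81) and the skeletal and cardiac muscle markers (median -1.27) lie left of the dotted line by their medians, and the pericyte members and endothelial markers lie around 0.

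Other genes of the mural programme are given next from lists of the same kinds. Of 14 further pericyte and mural genes, 10 were detected, and of the 12 in the fit 6 were higher in each pool and none passed 1.5-fold, with a median log2 ratio of 0.02. Vtn, the matrix protein vitronectin made by brain pericytes, gave 25.62 TPM (pool 1) and 28.91 TPM (pool 2). Notch3, the Notch receptor of mural cells, gave 19.05 and 16.72 TPM. The 4 of this list that were not detected were Higd1b, with 0 counts in pool 1 and 1 in pool 2, Atp13a5, with 3 and 1, Art3, with 12 and 10, and Des, with 36 and 34. Des encodes desmin, an intermediate filament protein of muscle and pericytes.

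Of 15 further contractile genes, 11 were detected and 14 were in the fit, 11 of them higher in pool 2 and 3 in pool 1, with a median of -0.21. Of these 14, Myh11 and Actg2 passed 1.5-fold, both in pool 2. Myh11, the smooth muscle myosin heavy chain and the most restricted gene of differentiated smooth muscle, had 17 counts in pool 1 and 49 in pool 2, or 0.12 and 0.34 TPM, a fold of 2.74 (interval 1.55 to 5.07). Actg2, smooth muscle gamma-actin, had 42 and 91 counts, a fold of 2.06 (interval 1.41 to 3.04). The other 12 had smaller folds. The largest of them were 1.32 for Mylk (interval 1.14 to 1.54) and 1.28 for Filip1l (interval 1.093 to 1.504). The tropomyosin gene Tpm1 had a fold of 1.253 (interval 1.211 to 1.297), Cald1, which encodes caldesmon, 1.17 (interval 1.12 to 1.23), and smoothelin, Smtn, 0.956 (interval 0.895 to 1.02). Genes of low level were among them too, with folds of 0.920 for Lmod1 (33 and 32 counts), 0.896 for Des, 1.17 for Pln and 1.15 for Synpo2.

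For serum response factor and its cofactors the list median lay near 0. Of 9 symbols 7 were found, since Mkl1 and Mkl2 are older names of Mrtfa and Mrtfb. The 7 genes were all in the fit, 4 higher in pool 1 and 3 in pool 2, with a median of 0.02. Srf itself was at 3.89 TPM (pool 1) and 3.90 TPM (pool 2). Mrtfa, an actin-sensing coactivator, was at 21.74 and 20.15 TPM, and Mrtfb at 12.34 and 12.14 TPM. Myocd, the cardiac and smooth muscle coactivator myocardin, rested on 12 counts in pool 1 and 21 in pool 2, and its fold of 1.66 has an interval from 0.780 to 3.70. Of the 7 genes 6 were detected. Myocd was not, at 0.44 TPM (pool 1) and 0.24 TPM (pool 2), a direction opposite to that of its counts.

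Of the 8 mural transcription factors 6 were detected, and of 7 in the fit 6 were higher in pool 2, with a median of -0.43. Foxc1, a forkhead factor needed in mural and meningeal cells, had 257 counts in pool 1 and 499 in pool 2, a fold of 1.84 (interval 1.58 to 2.15). Hic1, a mesenchymal zinc finger repressor, had 156 and 253 counts, a fold of 1.54 (interval 1.26 to 1.89). Foxf2 and Tbx18 had folds of 1.35 and 1.44. Foxs1, with 37 and 33 counts, was the one that leaned to pool 1, and Tcf21 had 0 counts in both.

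On the ligand side, all 5 genes of the PDGF list were detected, 4 of them higher in pool 2 and none past 1.5-fold, with a median of -0.17. Pdgfb, the endothelial ligand of Pdgfrb, was low, at 1.61 TPM (pool 1) and 1.78 TPM (pool 2). Pdgfra, the receptor of mesenchymal cells and oligodendrocyte precursors, was at 12.25 and 14.78 TPM, so that Pdgfrb stood at 1.05 times its level in pool 1 and 0.990 times in pool 2. For the channel of Abcc9, the list of 3 partner genes had a median of 0.09 with none past 1.5-fold. Kcnj8, which encodes the Kir6.1 pore that pairs with SUR2 and lies 16247 bases from Abcc9, was at 3.86 TPM (pool 1) and 4.31 TPM (pool 2), above Abcc9 in each.

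The transcript tables show which messages these levels come from. All counts of Pdgfrb and of Rgs5 were assigned to a single coding transcript, Pdgfrb-201 and Rgs5-201. Abcc9-203 held 92.5% of the TPM of Abcc9 in pool 1 and all of it in pool 2, Acta2-201 held 98.8% and 93.2%, and Myl9-201 held 97.9% and 97.2%. In these 5 genes the level is in effect that of the full coding transcript.

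The other 4 genes were divided. Of Tagln, the full transcript Tagln-201 (1595 bases) held 65.3% of TPM in pool 1 and 89.2% in pool 2, and the short coding fragment Tagln-202 (369 bases) held 27.1% and 9.74%. Counts put far less in the fragment, 6.57% and 1.92%, because TPM divides by transcript length. The Tagln-201 transcript by itself went from 5.30 to 11.63 TPM. For Cnn1 the 370-base fragment Cnn1-202 held 49.2% of TPM in pool 1 and 50.3% in pool 2 but 13.7% and 13.6% of counts, and the full Cnn1-201 (2381 bases) held 69.9% and 68.8% of counts. An alternative chosen after seeing the data kept only transcripts of at least 500 bases. The mean level of Cnn1 was then 1.22 TPM in place of 2.43 TPM. It was 0.93 TPM in pool 1 and 1.5 TPM in pool 2, which leaves Cnn1 below detection. In the older GENCODE M4 tables Cnn1 was at 0.83 TPM (pool 1) and 1.34 TPM (pool 2), again below detection, with 8 of 9 genes detected.

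For Cspg4 the coding transcript Cspg4-201 held 25.8% of TPM in pool 1 and 38.8% in pool 2. The rest lay in transcripts annotated as retained introns, Cspg4-202 with 34.9% and 23.7% and Cspg4-204 with 37.3% and 33.2%. On the coding transcript alone Cspg4 was at 0.76 TPM (pool 1) and 0.90 TPM (pool 2), the opposite direction to the whole gene. Both values are below the detection level, so in the M21 tables Cspg4 was detected only with the retained introns counted. In the M4 tables the gene was at 1.93 TPM (pool 1) and 1.62 TPM (pool 2), above that level. Of Anpep, Anpep-201 held 41.3% of TPM in pool 1 and 37.4% in pool 2, and Anpep-202, which starts further upstream, held 0% and 35.4%. Short transcripts took much of the rest in pool 1, with 24.0% in Anpep-204 and 27.1% in the retained intron Anpep-206, against 6.803% and 20.4% in pool 2. These shares go with the lower Anpep TPM of pool 2 at nearly equal counts, and they rest on fewer than 100 reads in each pool. By itself Anpep-201 was at 0.93 TPM (pool 1) and 0.55 TPM (pool 2), below the detection level. All coding transcripts of Anpep together gave 1.64 TPM (pool 1) and 1.17 TPM (pool 2), above it.

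**Figure D4:**
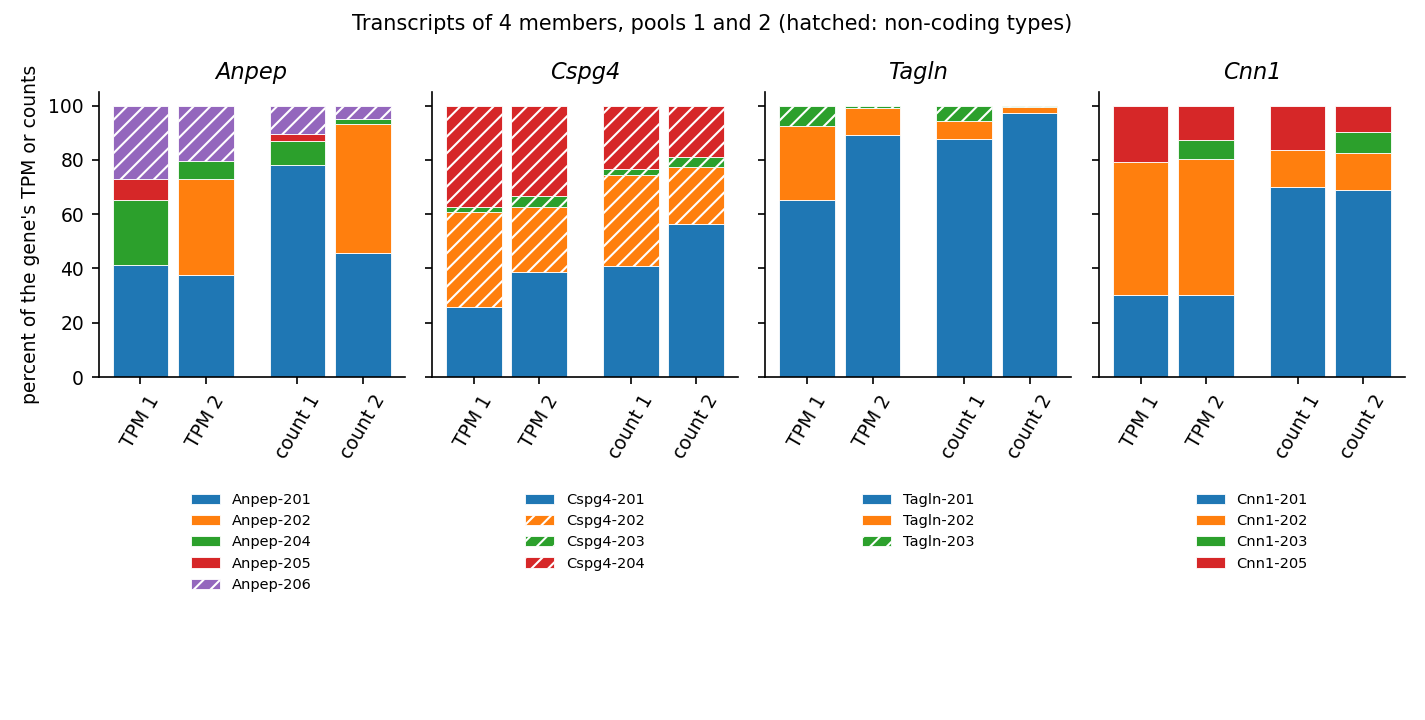
Percent of the gene's TPM (left pair of bars) and of its expected counts (right pair) held by each transcript of Anpep, Cspg4, Tagln and Cnn1 in pools 1 and 2, with non-coding types hatched. Cnn1-202 fills 49.2% and 50.3% of the TPM bars but 13.7% and 13.6% of the count bars, and Anpep-202 appears in pool 2 alone.

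Several members belong to families whose other genes are far more abundant in this tissue. Acta2 held 0.131% of the TPM of the 6 actin genes in pool 1 and 0.284% in pool 2. Actb, the cytoplasmic beta-actin, exceeded it 631-fold in pool 1 and 283-fold in pool 2. In the M4 tables the Acta2 share was 0.264% and 0.499%. Actb was at 5591 and 5419 TPM there, against 11157 and 9700 TPM in M21, so its folds over Acta2 were smaller in M4. Acta2 was nevertheless the highest of the 4 muscle actins, above Actc1 at 2.13 and 5.03 TPM, Actg2 at 1.68 and 3.38 TPM and Acta1 at 0.73 and 1.91 TPM.

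Among transgelins, Tagln held 2.69% of TPM in pool 1 and 4.44% in pool 2, under the neuronal Tagln3 at 257.45 and 249.65 TPM. Cnn1 held 0.253% and 0.408% of the calponins (0.108% and 0.170% in the M4 tables), under Cnn3 at 653.50 and 650.60 TPM. Myl9 held 9.38% and 13.6% of its family, under the non-muscle light chains Myl12a and Myl12b. GENCODE M21 gives Myl12b 2 gene identifiers, of which that total uses 1. With the second, at 192.4 and 202.9 TPM, added after seeing the data, Myl9 held 6.82% and 9.95%. Each of these 4 smooth muscle genes thus held a larger share of its family in pool 2.

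Rgs5 was the lowest of 4 related signalling regulators, with 5.51% and 5.35% of their TPM. Pdgfrb held 25.8% and 25.5% of the 4 related receptor kinases, below Kit. Abcc9 held 44.9% of the pair with Abcc8 in pool 1 and 57.1% in pool 2, a direction absent from the M4 tables, where it held 69.8% and 68.6%. Anpep held 17.2% and 10.7% of 4 aminopeptidases, and Cspg4 14.7% and 11.8% of the pair with the neural proteoglycan gene Cspg5.

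**Figure D5:**
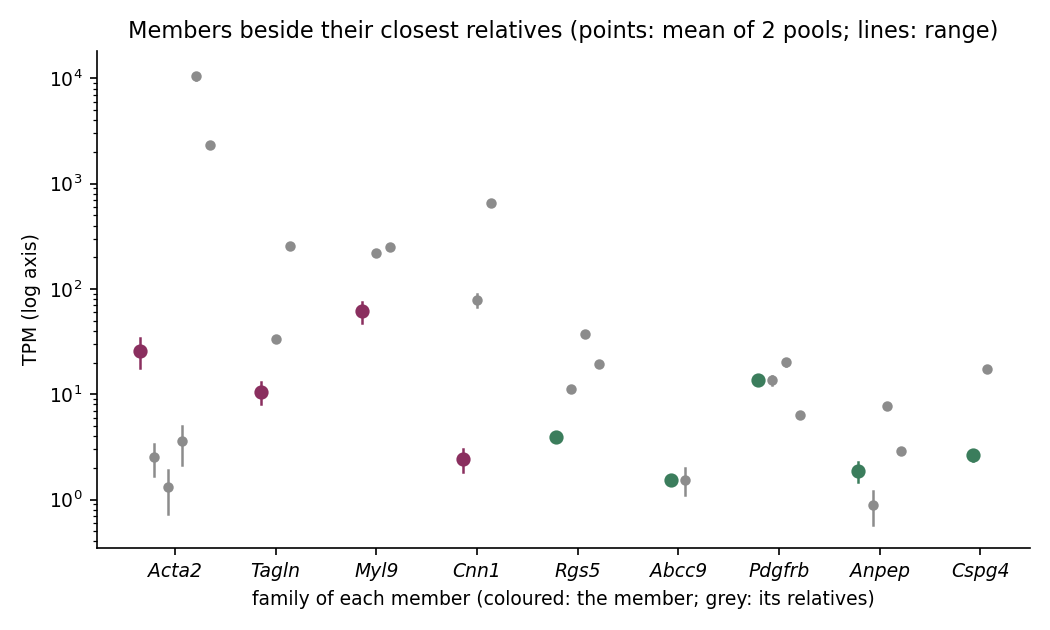
Mean TPM over both pools (points, log axis) with the range of the pools (lines) for each member (coloured) and its closest relatives (grey). Acta2 lies above 3 muscle actins and below 2 cytoplasmic actins. The upper of these exceeds it 631-fold in pool 1 in the M21 tables, a fold that is smaller in M4. Tagln, Myl9 and Cnn1 lie lowest in their families.

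How alike the sequences of such relatives are bears on how reads can be assigned. Over the coding sequence of Acta2, 85.4% of bases were identical to Acta1, 84.4% to Actg2, 83.2% to Actb, 82.5% to Actc1 and 81.8% to Actg1. Below are the last 60 coding bases, stop codon included, of the GENCODE M21 transcripts, shown because the actins are among the most alike of these genes. Capitals mark bases that differ from Acta2.
Acta2: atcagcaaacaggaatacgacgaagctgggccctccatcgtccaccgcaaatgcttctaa
Actb: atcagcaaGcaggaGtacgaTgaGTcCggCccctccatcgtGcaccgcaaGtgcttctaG
Acta1: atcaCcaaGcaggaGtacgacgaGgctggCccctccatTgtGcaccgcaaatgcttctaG
Actg2: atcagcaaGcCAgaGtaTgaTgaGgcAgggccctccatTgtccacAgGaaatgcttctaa
In this stretch Actb differed at 10 of 60 bases, Acta1 at 8 and Actg2 at 11. Over whole transcripts Acta2-201 shared 7 of its 1986 words of 50 bases with 6 other genes, among them the cytoplasmic gamma-actin gene Actg1 and the pseudogene Actg-ps1, and none with Actb.

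Myl9 was 86.3% identical to Myl12b and 85.5% to Myl12a over the coding sequence. The last 60 coding bases are shown because the 2 non-muscle genes are the same there, and capitals mark bases that differ from Myl9.
Myl9: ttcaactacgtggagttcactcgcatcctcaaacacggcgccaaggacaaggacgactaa
Myl12b: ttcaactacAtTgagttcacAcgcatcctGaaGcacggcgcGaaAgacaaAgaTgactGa
The Myl12a sequence of this stretch is the same as that of Myl12b and differs from Myl9 at 10 of 60 bases. No 50-base word of Myl9-201 occurred in another gene. Coding identity was lower for Tagln (72.0% to Tagln3, 69.8% to Tagln2) and Cnn1 (70.4% to Cnn3, 69.0% to Cnn2).

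The promoters of the members were searched for the CArG box, the 10-base binding element of serum response factor. It was searched on both strands, as CC and GG around a core of 6 bases that are all A or T (the strict form) or with 1 core base C or G (the near form, added after seeing the data). The promoters are RefSeq's on GRCm38.p6, 250 bases before to 50 after each start, and 7 of the 9 members were in the table. Tagln and Pdgfrb were not matched. Of all 32851 promoters, 1.63% held a strict box, 8.50% a near box, 9.98% a box of either form and 0.822% 2 or more. Myl9 held 1 strict and 1 near box, Acta2 held 2 near boxes, and Cnn1, Rgs5, Abcc9, Anpep and Cspg4 held none in this window. The 30 bases around each box are shown for the members that hold one, with the box in capitals.
Acta2 distal: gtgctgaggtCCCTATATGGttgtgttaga
Acta2 proximal: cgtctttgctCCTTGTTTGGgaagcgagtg
Myl9 distal: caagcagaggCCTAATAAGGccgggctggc
Myl9 proximal: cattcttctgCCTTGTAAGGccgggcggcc
The Acta2 windows are chr19:34255438-34255467 and chr19:34255388-34255417 on the minus strand, with boxes that begin 84 and 34 bases before the RefSeq start. GENCODE starts Acta2-201 further upstream, so that both lie within its first exon. The Myl9 windows are chr2:156775293-156775322 and chr2:156775355-156775384 on the plus strand, with boxes 161 and 99 bases before the start. The distal Myl9 box is the strict one. A match is a description of letters and not of binding, and a window without one, as for Cnn1, leaves the rest of the locus unsearched. Any relation of the boxes to the pool ratios was not tested. Of the relatives of the members, Actb, Actg2, Abcc8, Csf1r and Cspg5 were not matched either, so their promoters were not searched. Among the relatives that were searched, 4 held a strict box. These were Acta1, Actc1, Cnn2 and Actg1. Acta1 also held 2 near boxes and Actc1 3, and Myl12a held 1 near box. The other searched relatives, Cnn3, Myl12b, Tagln2, Tagln3, Rgs4, Rgs8, Rgs16, Pdgfra, Kit, Enpep, Lnpep and Erap1, held none. Of the further contractile genes, Filip1l held 1 strict box at 1 of its starts. Smtn, Mylk, Cald1, Lmod1, Synpo2, Tpm1, Tpm2, Tpm4, Pln, Des, Csrp1 and Mustn1 held none, and Myh11 was not matched. Srf held 2 strict boxes.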

How the data were processed

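The 2 libraries are polyA-plus RNA-seq of pooled forebrain, primed with oligo-dT, PCR-amplified as full-length cDNA, then cut by tagmentation, with ERCC spike-ins, per the labels' protocols. The authors deposited expected counts (estimated reads, not normalised), TPM, FPKM and a posterior mean TPM, handled as a score, per gene and transcript, per the file headers. The build is mm10 with GENCODE M4 and M21, per the deposited list of files. FPKM is not reported. Each of aligner, quantifier, version and strand setting is not given in the sources used here.

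The M21 tables were the main ones. Expected counts were rounded and scaled by TMM in edgeR 4.0.16 (R 4.3.3) over genes averaging 10 counts or more. Log2 ratios of pool 1 over pool 2 used a prior count of 1, and folds of pool 2 over pool 1 have exact (Clopper-Pearson) 95% intervals. Intervals and the floor of 3 counts cover counting error only, as PCR copies are not independent molecules. A gene was called past 1.5-fold. Each pool is 1 library, so no test was made and no p-value is given. DESeq2 1.42.0 size factors and other alternatives are given in the closing section. The arithmetic of the ratio was checked on simulated independent counts, which leaves read assignment, PCR copies and the spread between pools unchecked. Other tools were Python 3.11.15, numpy 2.4.6, scipy 1.17.1, pandas 2.3.3 and matplotlib 3.10.9. Transcript sequences and coordinates are GENCODE M21's on GRCm38, and promoters RefSeq's. Relatives were compared by coding sequence, aligned end to end, in place of the protein comparison first planned.

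All members may be named, with any gene of 6 further lists, of the family comparison and of 8 marker lists, 1 of which is the members themselves. Transcripts are named when they hold at least 10% of a member's TPM in either pool or are the highest coding transcript. The members, lists and rules were chosen with earlier results of these data known.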

Additional observations from a re-analysis of the deposited data

How the results depend on the processing

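The 4 contractile genes were past 1.5-fold in pool 2 with DESeq2 size factors, spike-in totals, total counts, M4 counts, a prior count of 5, no count filter and, chosen after seeing the data, endothelial counts or a protein-coding TMM. With TPM + 1 the number was 3, Cnn1 dropping to a log2 ratio of -0.51, and past 2-fold it was 0. No member was past 1.5-fold in pool 1 under any of these. The contractile median ran from -0.97 (spike-ins) to -0.63 (TPM + 1). With spike-ins the log2 ratios of Rgs5 and Abcc9 turned to -0.06 and -0.02, all genes shifted by -0.16, and of calls past 1.5-fold 84.9% (2285 genes) were higher in pool 2 against 71.0% (1517 genes) with TMM. With TPM + 1 that number was 375, and with a prior count of 5 it was 1227. Detected members numbered 8 in M4 and 6 at a TPM of at least 2. In M4 the mean level of Cspg4 was 1.77 TPM, against 2.64 TPM. Mean family shares in M4 against M21 were 69.2% against 51.0% for Abcc9, 0.139% against 0.331% for Cnn1 and 0.382% against 0.208% for Acta2. A pool difference cannot be computed without either pool. No paired analysis was possible because the labels give 1 group, so no groups share replicate numbers. Among the members, Cnn1 and Anpep rest on the fewest counts, under 100 in both pools.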

Other observations

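The transcripts and genes in this part were singled out after their values were seen. Acta2-202, a coding transcript of 826 bases that starts inside the gene, went from 3.22 expected counts in pool 1 to 37.64 in pool 2, or 0.21 to 2.34 TPM, so its share of Acta2 TPM was 1.19% and 6.83%. The full transcript Acta2-201 went from 718.78 to 1366.36 counts, so the higher Acta2 level of pool 2 was present in it as well.

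Synpo2, an actin-associated gene of smooth muscle, had more counts in pool 2, 203 against 168, and a lower TPM, 1.26 against 2.22. Like Anpep, it shows that counts and TPM of these libraries can differ in direction for genes with several transcripts. Ndufa4l2, a nuclear gene for a mitochondrial protein used as a pericyte marker, had 113 counts in pool 1 and 85 in pool 2. Its fold was 0.714 (interval 0.532 to 0.954). Ednra, the endothelin receptor of mural cells, had 554 and 714 counts, a fold of 1.22 (interval 1.09 to 1.37).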
